A study of Mus musculus with 4 samples.

Results

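The genes described are 9 factors linked to DNA methylation in mouse embryonic stem cells, taken from the count table by Ensembl ID: Dnmt1, Dnmt3a, Dnmt3b, Dnmt3l, Uhrf1, Uhrf2, Zfp57, Mbd3 and Hells. They are 9 of 37991 rows in the table, each symbol matched 1 row, and all 9 were among the 14027 genes that passed the low-count filter. RNA was sequenced from dKO cells, which are null for both B-type lamins (Lmnb1 and Lmnb2), and from wt cells, with 2 biological replicates of each genotype. All 4 libraries carry the strain label ZHBTc4, an embryonic stem cell line known for an Oct4 (Pou5f1) transgene that can be switched off; culture conditions are not stated in the labels. Each genotype may be 1 line, so loss of lamins and a difference between lines cannot be told apart. In these bulk samples fewer cells of a type and less RNA per cell cannot be told apart either.

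Methylation of cytosine in CpG dinucleotides is set by de novo methyltransferases and copied after replication by a maintenance machinery. Dnmt3a and Dnmt3b are the de novo enzymes, and Dnmt3l is a related protein without catalytic activity that stimulates them. Dnmt1 copies methylation onto the new strand, Uhrf1 recognises hemimethylated DNA and recruits Dnmt1, and the chromatin remodeller Hells (also called Lsh) helps methylation reach compact chromatin. Uhrf2 resembles Uhrf1 but does not replace it in maintenance. Zfp57 is a zinc finger protein that binds the methylated allele at imprinting control regions together with Trim28 and protects its methylation in embryonic stem cells. Mbd3 belongs to the methyl-CpG binding family by sequence and is a subunit of the NuRD deacetylase and remodelling complex.

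The libraries held 16697970 and 16584014 counts in dKO replicates 1 and 2, and 12899964 and 14941952 counts in wt replicates 1 and 2. The targeted transcripts matched the labels, since Lmnb1 had 4.24 and 6.02 CPM (counts scaled to 1e+06 per library) in dKO cells, against 667 and 547 CPM in wt cells, and Lmnb2 had 2.52 and 3.28 CPM in dKO cells, against 105 and 117 CPM in wt cells. Pou5f1, a gene of pluripotent cells, was at 790 to 822 CPM in dKO and 751 to 876 CPM in wt cells. As ZHBTc4 is known for a Pou5f1 transgene, this level may come from it. The counts cannot tell transgene from endogenous transcripts, so Pou5f1 is a limited marker of cell state here. The 13 stem cell markers summed to 8176 and 8868 CPM in dKO cells, against 7150 and 7603 CPM in wt cells. Of their log2 fold changes 7 were positive and 6 negative, and a large part of the difference in sums was Zfp42. It had 1449 and 1435 CPM in dKO cells, against 666 and 613 CPM in wt cells. The 12 fibroblast markers summed to 141 and 220 CPM in dKO cells, against 179 and 215 CPM in wt cells, with S100a4 at 0 counts in every library and 6 of the 12 below the filter. Most of this sum was Vim, at 119 and 189 CPM in dKO cells, against 153 and 182 CPM in wt cells. The 8 primed epiblast markers summed to 191.6 and 231.5 CPM in dKO cells, against 165.9 and 200.7 CPM in wt cells. The 8 primitive endoderm markers summed to 283 and 294 CPM in dKO cells, against 229 and 277 CPM in wt cells, most of it from Lama1 and Col4a1.

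None of the 9 genes passed the test between genotypes with genotype as the only term; with the replicate number added as a block, 1 of 9 did, Dnmt3b (log2 fold change -0.35, edgeR adjusted p = 0.0138), where 9.26% of all genes were called. The test with genotype as the only term was edgeR's quasi-likelihood test with Benjamini-Hochberg adjustment over 14027 genes. In it 0 of 9 had an adjusted p under 0.05, and 0 of 9 had an unadjusted p under 0.05. Across all genes 12 were called, which is 0.0855% (0.0356% higher and 0.0499% lower in dKO, where 0 of 9 members were called either way). An unadjusted p under 0.05 was found for 782 genes, which is 5.57%. The smallest log2 fold change among the 12 called genes was 1.665 in size, above that of every member, so the test called only large differences. DESeq2 and limma-voom also called 0 of 9. Adjusted p-values ran from 0.944 to 0.997. Of the 9 log2 fold changes (dKO minus wt) 4 were positive and 5 negative, with a median of -0.02, and a median size of 0.20 against 0.16 over all genes tested. The 95% interval lay within 1 of 0 for all 9 genes, against 9182 of 14027 genes tested. A change of 2-fold or more in either direction therefore lay outside the interval of every member. The plot of fold changes shows these intervals by role.

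**Figure D1:**
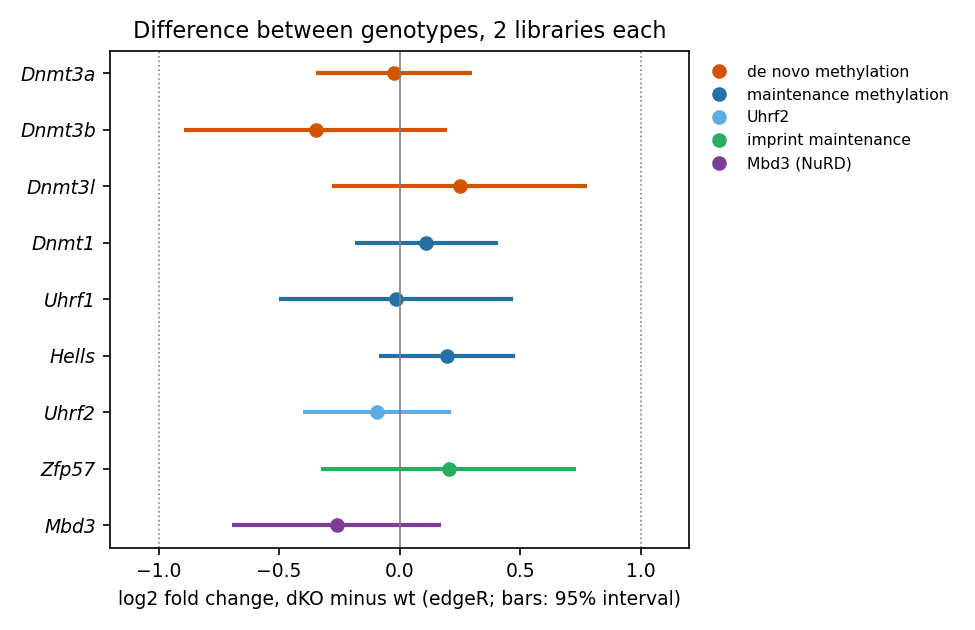
Log2 fold change (dKO minus wt, edgeR) of each gene on the x axis with its 95% interval as a bar, coloured by role, from 2 libraries per genotype; dotted lines mark a 2-fold change. In this fit, with genotype as the only term, every interval crosses 0 and ends inside the dotted lines, and the lowest estimate is that of Dnmt3b at -0.35.

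Levels of different genes were compared per kilobase of annotated exon, and scaled so that all rows with a length sum to 1e+06 units in a library. On this scale Dnmt3l was the highest of the 9, at 823 and 768 units in dKO cells, against 781 and 532 units in wt cells. It ranked between 133 and 233 among 13660 tested genes with a length. Zfp57 came next with a mean of 412 units over the 4 libraries, then Hells with 309, Uhrf1 with 293, Dnmt1 with 220, Mbd3 with 194 and Dnmt3b with 128 units. Uhrf2 and Dnmt3a were far lower, with means of 19.5 and 10.99 units. The 4 libraries of Dnmt3l lay above all 4 of Zfp57, those of Uhrf1 above those of Dnmt1, those of Dnmt3b above those of Uhrf2, and those of Uhrf2 above those of Dnmt3a. The other neighbours in the order, Zfp57 and Hells, Hells and Uhrf1, Dnmt1 and Mbd3, and Mbd3 and Dnmt3b, overlapped across libraries. The order was the same with the length of the longest protein-coding transcript in place of the exon union. Dnmt3a has a long exon union of 16642 bases, and its level per length was 13.4 units by the longest transcript.

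**Figure D2:**
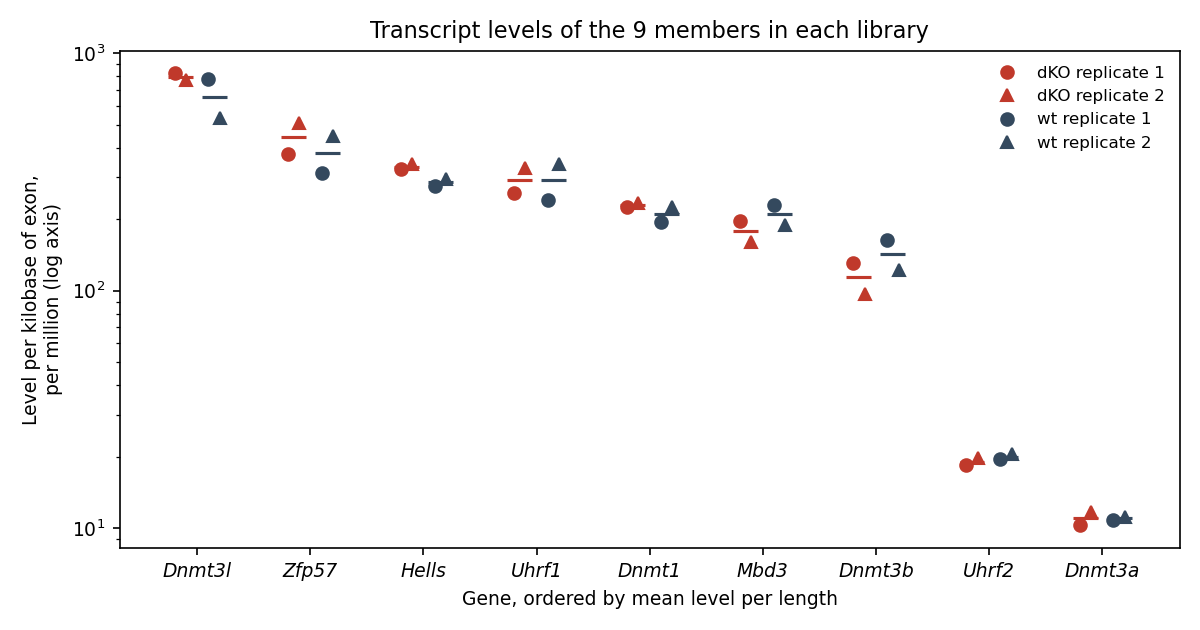
Level per kilobase of exon, in units that sum to 1e+06 per library (logarithmic y axis), of the 9 genes in each library, with genes ordered by mean level; circles are replicate 1, triangles replicate 2, and bars the mean of each genotype (n = 2). Dnmt3l lies highest, with a mean of 726 units over the libraries, while Uhrf2 and Dnmt3a lie below 21 units in every library.

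Among the de novo genes, Dnmt3b (ENSMUSG00000027478, chromosome 2, 153475186 to 153513466 in the table's own build) had the lowest estimate of the 9. It had 189 and 139 CPM in dKO replicates 1 and 2, against 242 and 174 CPM in wt replicates 1 and 2. The genotypes overlapped, because dKO replicate 1 was above wt replicate 2. Dnmt3b averaged 164 ± 35.4 CPM in dKO and 208 ± 48.4 CPM in wt cells (SD, n = 2 each). The estimate on the log2 scale was -0.35 (95% interval -0.89 to 0.20, edgeR adjusted p = 0.953). Leaving out wt replicate 1 gave -0.10 and leaving out wt replicate 2 gave -0.57, neither of them called.

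Dnmt3l (ENSMUSG00000000730, chromosome 10, 77504692 to 77526367), the catalytically inactive cofactor, had 694 and 641 CPM in dKO cells, against 679 and 445 CPM in wt cells. Only wt replicate 2 stood apart, and the genotypes overlapped. Its log2 fold change was 0.25 (95% interval -0.28 to 0.78, adjusted p = 0.978). Leaving out wt replicate 2 gave -0.02, and leaving out wt replicate 1 gave 0.58. The gene overlaps Aire on the opposite strand over 1664 bases, and Aire had 674 and 920 counts in dKO and 513 and 722 counts in wt libraries, against 11302 and 10743 in dKO and 8683 and 6765 in wt libraries for Dnmt3l. No source used here states whether counting used strand, so reads from the shared stretch cannot be assigned with certainty.

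Dnmt3a (ENSMUSG00000020661, chromosome 12, 3806007 to 3914443), the other catalytic de novo enzyme, had 48.3 and 54.4 CPM in dKO cells, against 52.4 and 52.0 CPM in wt cells. The dKO values enclosed both wt values. The log2 fold change was -0.02 (95% interval -0.35 to 0.30, adjusted p = 0.995). The table gives 1 row per gene, so the long and short Dnmt3a isoforms, which have separate promoters, cannot be told apart, and the same holds for the splice forms of Dnmt3b with and without an intact catalytic domain.

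The promoters of the de novo genes differ in CpG content, shown here because CpG is the dinucleotide these enzymes methylate. The sequences are from RefSeq (GRCm38.p6, a build that is not the table's) and run 5′ to 3′ on the gene's strand, with each CpG in capitals. The Dnmt3b stretch is chr2:153649199-153649448 on the plus strand and the Dnmt3l stretch chr10:78049592-78049841 on the plus strand; Dnmt3l has 3 annotated starts, of which this is 1.
Dnmt3b: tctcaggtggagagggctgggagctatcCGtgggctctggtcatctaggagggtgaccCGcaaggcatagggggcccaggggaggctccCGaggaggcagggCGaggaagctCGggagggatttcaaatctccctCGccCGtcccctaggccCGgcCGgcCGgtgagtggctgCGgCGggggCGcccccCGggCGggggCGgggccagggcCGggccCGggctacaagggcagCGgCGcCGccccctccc
Dnmt3l: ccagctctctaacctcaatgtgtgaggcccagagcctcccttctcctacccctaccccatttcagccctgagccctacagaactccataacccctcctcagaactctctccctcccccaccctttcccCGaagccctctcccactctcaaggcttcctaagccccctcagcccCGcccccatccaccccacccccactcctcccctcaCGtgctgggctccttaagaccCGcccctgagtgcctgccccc
The Dnmt3b stretch holds 21 CpGs in 250 bases and the Dnmt3l stretch 4. In windows of 300 bases around annotated starts, Dnmt3a held 18 to 47 CpGs, Dnmt3b 30 and Dnmt3l 3 to 6, where the median of 32851 windows was 7. Which of the annotated starts these cells use was not measured.

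The maintenance genes were close to each other in level and differed little between genotypes. Dnmt1 (ENSMUSG00000004099, chromosome 9, 20711650 to 20757317) had 468 and 484 CPM in dKO cells, against 418 and 464 CPM in wt cells. Both dKO libraries lay above both wt libraries, by a narrow margin. The log2 fold change was 0.11 (95% interval -0.19 to 0.41, adjusted p = 0.981). Hells (ENSMUSG00000025001, chromosome 19, 39005405 to 39045541) had 663 and 684 CPM in dKO cells, against 580 and 595 CPM in wt cells, which did not overlap. Hells averaged 673 ± 15.01 CPM in dKO and 587 ± 10.3 CPM in wt cells (SD, n = 2 each). The estimate was 0.20 on the log2 scale (95% interval -0.08 to 0.48, adjusted p = 0.944). Its estimate stayed between 0.17 and 0.22 with any 1 library left out.

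Uhrf1 (ENSMUSG00000001228, chromosome 17, 56442744 to 56462909), which guides Dnmt1 to hemimethylated sites, had 311 and 390 CPM in dKO cells, against 300 and 408 CPM in wt cells. The wt range enclosed both dKO values. The log2 fold change was -0.02 (95% interval -0.50 to 0.47, adjusted p = 0.997). Leaving out wt replicate 2 gave 0.225, and leaving out wt replicate 1 gave -0.225. A processed pseudogene of Uhrf1, Gm5648 on chromosome X, matches it at 98.3% over 1590 bases and had 0 or 1 count per library. Uhrf2 (ENSMUSG00000024817, chromosome 19, 30105003 to 30168212) had 44.5 and 47.2 CPM in dKO cells, against 48.7 and 49.2 CPM in wt cells. Both dKO libraries lay below both wt libraries, with a log2 fold change of -0.09 (95% interval -0.40 to 0.21, adjusted p = 0.985). Of the 9 genes, Dnmt1, Hells and Uhrf2 had genotypes that did not overlap; across all genes tested 33.6% did so, so 3 of 9 is near the background. Higher in dKO without overlap were 2 of 9, against 17.2% of all genes, and lower was 1 of 9, against 16.4%.

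Dnmt1, Uhrf1 and Hells also share letters of a promoter motif that were not in the windows of the other 6. E2F factors drive genes of DNA replication, and 4 spellings of their 8-letter motif (TTTCCCGC, TTTCGCGC, TTTGCCGC and TTTGGCGC) were searched on both strands of the RefSeq windows, from 250 bases before to 50 after each annotated start. No other motif was searched for, and this one was chosen after the values of the 9 genes were seen. A match was present in a window of 3 of the 9 genes, against 2.6% of 27025 genes with a window. These shares are not matched, since the 9 genes had 18 windows, against 32851 windows over all genes. Per window, 2.26% of all windows held a match. No share among windows equally rich in CpG is given. The windows with a match also held 33 CpGs in Dnmt1, 33 in Uhrf1 and 34 in Hells, against a median of 7. Each of the 4 spellings holds a CpG itself, and enrichment was not tested. The stretches of 30 bases that hold the matches are shown 5′ to 3′ on the gene's strand with the motif in capitals, at chr9:20952824-20952853 (minus strand), chr17:56304117-56304146 (plus strand) and chr19:38930917-38930946 (plus strand) in GRCm38.p6. In Dnmt1 the motif is read on the opposite strand.
Dnmt1: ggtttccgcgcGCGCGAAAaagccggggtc
Uhrf1: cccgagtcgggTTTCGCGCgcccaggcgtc
Hells: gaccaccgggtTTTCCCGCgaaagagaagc
A further match in Dnmt1 lies 33 bases after the same start. A match of letters is a description of the sequence, and binding was not measured.

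Zfp57 and Mbd3 complete the 9. Zfp57 (ENSMUSG00000036036, chromosome 17, 37138108 to 37147580), which protects imprints, had 404 and 538 CPM in dKO cells, against 344 and 475 CPM in wt cells. The genotypes overlapped and replicates of 1 genotype lay further apart than the genotype means. The log2 fold change was 0.20 (95% interval -0.33 to 0.73, adjusted p = 0.981). Leaving out wt replicate 1 gave -0.015, and leaving out dKO replicate 2 gave -0.014. Mbd3 (ENSMUSG00000035478, chromosome 10, 79855284 to 79862295) had 111 and 88.6 CPM in dKO cells, against 133 and 105 CPM in wt cells. Only dKO replicate 1 and wt replicate 2 crossed. The log2 fold change was -0.26 (95% interval -0.69 to 0.17, adjusted p = 0.96). Leaving out wt replicate 1 gave -0.09, and leaving out wt replicate 2 gave -0.42.

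Differences between replicates of 1 genotype were larger than those between genotypes for 6 of the 9 genes, compared on log2(CPM + 0.5), with Dnmt1, Hells and Uhrf2 the exceptions. The same held for 66.4% of all genes tested. The members split by which replicate was higher. Dnmt3b, Dnmt3l and Mbd3 were higher in replicate 1 than in replicate 2 in both genotypes, by 0.44 log2 units in dKO and 0.48 in wt cells for Dnmt3b and by 0.32 in dKO and 0.34 in wt cells for Mbd3. Dnmt3l differed by 0.12 log2 units in dKO and 0.61 in wt cells. Dnmt1, Uhrf1, Uhrf2, Zfp57 and Hells were higher in replicate 2 in both genotypes, with Uhrf1 0.33 log2 units higher in dKO and 0.44 in wt cells and Zfp57 0.41 higher in dKO and 0.46 in wt cells. Dnmt3a alone differed in sign. Thus 8 of 9 genes had the same order of replicates in both genotypes, against 72.3% of all genes tested. Between libraries of the same number, 1 and then 2, dKO minus wt was -0.362 and -0.328 log2 units for Dnmt3b and -0.268 and -0.251 for Mbd3. It was 0.192 and 0.202 for Hells, 0.232 and 0.181 for Zfp57, and 0.032 and 0.527 for Dnmt3l. Dnmt1 was higher and Uhrf2 lower in dKO at both numbers, while Dnmt3a and Uhrf1 differed in sign. The labels do not say what the replicate numbers stand for.

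**Figure D3:**
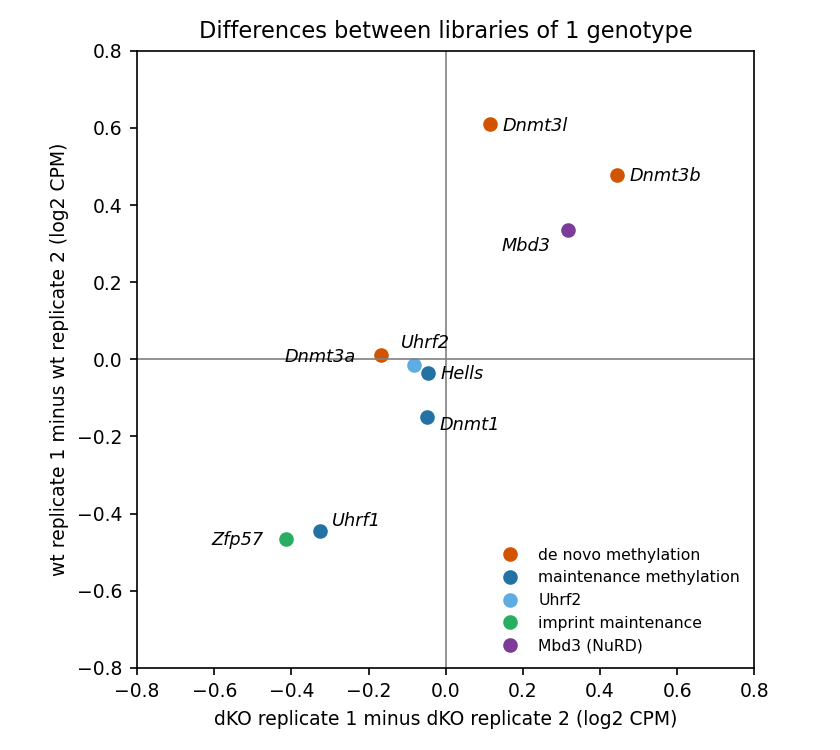
Difference between replicate 1 and replicate 2 in log2 CPM, in dKO cells on the x axis and in wt cells on the y axis, with 1 point per gene coloured by role. Dnmt3b, Dnmt3l and Mbd3 lie in the upper right quadrant, Uhrf1 and Zfp57 in the lower left, and Hells, Uhrf2 and Dnmt1 near the centre.

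De novo and maintenance genes were set beside each other within each library. The mean log2 CPM of Dnmt3a, Dnmt3b and Dnmt3l minus that of Dnmt1, Uhrf1 and Hells was -1.30 and -1.57 in dKO cells, against -1.02 and -1.60 in wt cells. The dKO values lay inside the wt range. The mean was -1.44 ± 0.19 in dKO and -1.31 ± 0.41 in wt cells (SD, n = 2 each), a difference of -0.13 log2 units. Its direction turned with 1 library left out, being 0.16 when wt replicate 1 was omitted and 0.004 when dKO replicate 2 was omitted; it was -0.42 when wt replicate 2 was omitted. No test is given, as exact permutation of 2 against 2 libraries cannot go below p = 0.33.

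Ratios of levels per length within a library gave a similar picture, with 1 exception. Dnmt3b exceeded Dnmt3a 12.7-fold and 8.30-fold in dKO cells, against 15.1-fold and 10.9-fold in wt cells. Dnmt3a plus Dnmt3b stood to Dnmt1 as 0.628 and 0.464 in dKO cells, against 0.894 and 0.592 in wt cells. Uhrf1 stood to Dnmt1 as 1.15 and 1.40 in dKO cells, against 1.24 and 1.52 in wt cells. These 3 ratios overlapped between genotypes, as did Uhrf2 to Uhrf1 and Zfp57 to Trim28. The ratio of Dnmt3l to the sum of Dnmt3a and Dnmt3b was 5.83 and 7.05 in dKO cells, against 4.49 and 4.001 in wt cells, and did not overlap, with means of 6.44 ± 0.87 in dKO and 4.24 ± 0.34 in wt cells (SD, n = 2 each). It joins the highest and the lowest estimate of the 9 genes, it was chosen after their values were seen, and it was not tested. Lack of overlap is common with 2 libraries per genotype, as 33.6% of all genes tested did not overlap in CPM.

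**Figure D4:**
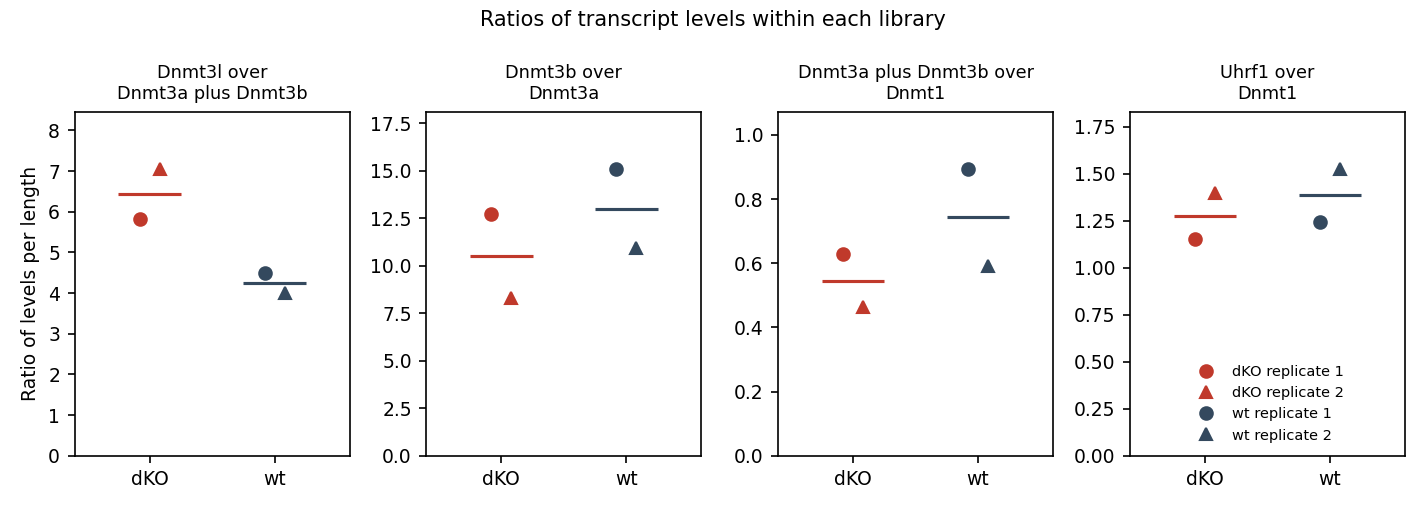
Ratios of levels per length (y axes, starting at 0) in dKO and wt libraries, with circles for replicate 1, triangles for replicate 2 and bars for the mean (n = 2). The ratio of Dnmt3l to Dnmt3a plus Dnmt3b is 5.83 and 7.05 in dKO and 4.49 and 4.001 in wt libraries, and the other 3 ratios overlap.

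Partners of the maintenance machinery and of imprint protection did not pass the test. Rose and fell mean called higher or lower in dKO, here and in the lists below. Across all genes 0.0356% were called higher and 0.0499% lower, so 0 calls in a list of this size are near that share. Of 14 maintenance partners 0 rose and 0 fell, and 0 had an unadjusted edgeR p under 0.05, against 5.57% of all genes. Their median log2 fold change was 0.07, beside a median of -0.002 over all genes tested. Usp7, a deubiquitinase that stabilises Dnmt1 and Uhrf1, had 784 and 665 CPM in dKO cells, against 717 and 665 CPM in wt cells (log2 fold change 0.07). Cdca7, which activates Hells, was at 0.06, and Lig1, a replication ligase whose methylated form binds Uhrf1, was at -0.04. Dppa3, which protects maternal methylation after fertilisation and can displace Uhrf1, was low, at 11.4 and 7.64 CPM in dKO cells, against 12.7 and 11.6 CPM in wt cells (-0.35, adjusted p = 0.97). Of 18 imprint and zinc finger partners 0 rose and 0 fell, with a median of 0.10, and 1 of 18 had an unadjusted edgeR p under 0.05. Trim28, the corepressor that Zfp57 recruits, had 2175 and 2248 CPM in dKO cells, against 2233 and 2217 CPM in wt cells (-0.01, 95% interval -0.31 to 0.29). Zfp445, a further imprint-protecting zinc finger protein, had 101 and 104 CPM in dKO cells, against 80.1 and 94.1 CPM in wt cells (0.24, adjusted p = 0.942), and H3f3b, which encodes histone H3.3, was at 0.18.

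Regulators of de novo methylation gave 0 risen and 0 fallen of 18 tested genes, with a median of 0.05. Of these, 4 of 18 had an unadjusted edgeR p under 0.05, against 5.57% of all genes. They were Zfp42, Mga, Smchd1 and Kdm2b, all with positive values. Prdm14, which represses Dnmt3 genes in naive embryonic stem cells, had 29.4 and 43.7 CPM in dKO cells, against 35.9 and 42.7 CPM in wt cells (-0.10, 95% interval -0.66 to 0.45). Kdm5b, a histone H3K4 demethylase, was at 0.00, and Zfp42, a marker of naive cells, was at 1.17 without passing the test (adjusted p = 0.0886). Dnmt3c, the rodent de novo enzyme of male germ cells, did not pass the low-count filter. Of 12 methyl-CpG binding and related proteins 0 rose and 0 fell (median 0.02), and 0 had an unadjusted edgeR p under 0.05. Baz2a was at -0.13 and Baz2b at 0.46. Of 17 NuRD subunits and partners, the complex of Mbd3, 0 rose and 0 fell (median 0.02), with the remodelling ATPase Chd4 at -0.08 and the histone chaperone Rbbp4 at 0.07. The largest difference was that of Mta3, at -0.68 (edgeR adjusted p = 0.292), the 1 gene of 17 with an unadjusted p under 0.05.

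Enzymes that remove or supply methyl groups were likewise not called. Of 23 tested genes of oxidation and repair 0 rose and 0 fell (median 0.04), and 2 of 23 had an unadjusted edgeR p under 0.05, against 5.57% of all genes. These were Tdg at 0.745 and Gadd45b at -0.468. Tet1, the main oxidase of 5-methylcytosine in these cells, had 919 and 848 CPM in dKO cells, against 596 and 859 CPM in wt cells (0.28, adjusted p = 0.965). Tet2 had 280 and 289 CPM in dKO cells, against 198 and 248 CPM in wt cells (0.35, 95% interval -0.01 to 0.71, adjusted p = 0.888), and Parp1 was at -0.13. Of 32 genes of the S-adenosylmethionine and one-carbon cycle 0 rose and 0 fell (median 0.00), with Mat2a, which makes the methyl donor, at 0.13 and the amino acid transporter Slc38a2 at 0.40. In this list 3 of 32 had an unadjusted edgeR p under 0.05. The largest difference was that of Nnmt, at -3.80 (edgeR adjusted p = 0.346), a gene with a mean of 0.73 CPM.

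Germline genes listed for methylated promoters and imprinted genes were read as a pair of lists. Whether each gene on them depends on methylation in these cells was not measured. Of 30 tested germline genes 1 fell, against 0.0499% of all genes, and 0 rose, against 0.0356%. Their median was 0.22, with 20 positive and 10 negative values, and 6 of 30 had an unadjusted p under 0.05, against 5.57% of all genes. The called gene was Tex15, a factor of male germ cells, at 21.0 and 18.2 CPM in dKO cells, against 67.5 and 60.9 CPM in wt cells (-1.71, adjusted p = 0.0452). The list's largest value was that of Cyct, at 2.48 (edgeR adjusted p = 0.0838), which did not pass the test and is named after its value was seen. Among the 6 genes with an unadjusted p under 0.05, Tex15 was negative, while Cyct, Zfp42, Piwil2, Meioc and Tex14 were positive. Zfp42 stands in this list as well as among the de novo regulators, and it is among the 6 genes with an unadjusted p under 0.05. It was not silent, at 1449 and 1435 CPM in dKO cells, against 666 and 613 CPM in wt cells. Of 53 tested imprinted genes 0 rose and 0 fell, with 32 positive and 21 negative values and a median of 0.06, and 4 of 53 had an unadjusted edgeR p under 0.05. Peg10, a paternally expressed gene, had 681 and 571 CPM in dKO cells, against 590 and 627 CPM in wt cells (0.04), and Jade1 was at 0.08. Methylation itself was not measured in these samples.

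**Figure D5:**
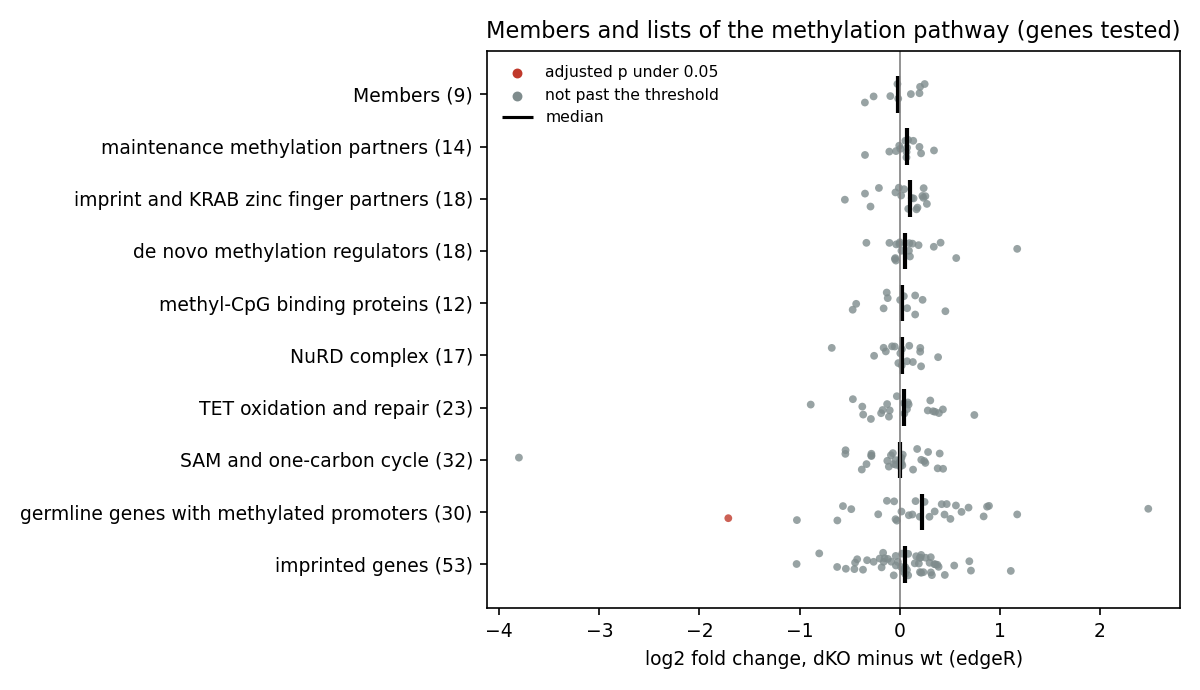
Log2 fold change (dKO minus wt, edgeR, x axis) of each tested gene in the members and in 9 lists linked to DNA methylation. The number tested is in brackets and the median is a black bar. Vertical scatter within a row has no meaning. List medians lie between 0.00 and 0.22, and 1 gene, Tex15 at -1.71, is past the threshold.

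The profiles most like those of the members were sought by root mean square distance of centred log2 CPM over the 4 libraries. Among 10310 named genes that are no members, the nearest to the mean de novo profile were Snrpb (0.01), Ostc (0.01) and Tprgl (0.01), and the nearest to the mean maintenance profile were Tmem185a (0.01), Ireb2 (0.01) and Tctn3 (0.01), with the distance in log2 units in brackets. With 4 libraries many genes lie close by: 201 genes were within 0.05 of the de novo profile and 223 within 0.05 of the maintenance profile.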

How the data were processed

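Trizol RNA was made into TruSeq libraries, per the labels' protocols. Whole-number read counts for each Ensembl gene were deposited by the authors in a single table. Per the submitters' processing notes the tools were TopHat2 2.0.6, TopHat and HTSeq, without their roles. No source used here states the build, annotation or strand setting. On chromosome 1 the table's last gene end is 197054592, against 195323493 in GENCODE M21, so table positions are in the table's own build. Exon lengths came from GENCODE M21, and 32919 of 37991 IDs matched a symbol. Near-identical copies were sought with blastn 2.17.0.

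The 9 genes and all lists were chosen with earlier results of these data known, and the ratios and the promoter motif after the values of the 9 genes were seen. Libraries were grouped by title. Chi-square per degree of freedom between libraries was 13.2 to 31.8, so none was a duplicate. After filterByExpr and TMM scaling, edgeR 4.0.16 in R 4.3.3 (robust quasi-likelihood F test) compared the genotypes with no covariate, adjusting p by Benjamini-Hochberg over 14027 genes at 0.05. Intervals come from the F statistic. CPM values are TMM-scaled; the pseudocount on the log scale is 0.5. From each list, genes past the threshold or else the 2 with the highest CPM are named, beside genes fixed by name, of which 1 is not reported here. The edgeR test with genotype as the only term was first tried on simulated data with known changes. Its simulated libraries were drawn independently, without a difference shared by replicate number, so the trial does not cover that feature of these data. The replicate block, DESeq2 and limma-voom were not tried in this way. Alternatives were other scalings and filters, a replicate block, each library left out, DESeq2 1.42.0 and limma-voom (limma 3.58.1).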

Additional observations from a re-analysis of the deposited data

How the results depend on the processing

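Under 12 alternatives the 9 log2 fold changes were recomputed 108 times, of which 101 kept their direction and side of the threshold. The count of 9 members called was 0 under each alternative but the replicate block, where it was 1. Replicate numbers are shared between genotypes, but the labels do not say that they pair samples, and with 2 pairs this cannot be decided. The deviations of libraries with the same number correlated over genes (r = 0.68), which is a property of the data only. Chi-square per degree of freedom was 13.2 and 15.6 between libraries with the same number, against 20.4 within dKO and 20.4 within wt. The main fit has no replicate term and counts such a shared difference as error. With the replicate block 1299 of all genes (9.26%) were called, and Dnmt3b was at -0.35 (95% interval -0.53 to -0.16, edgeR adjusted p = 0.0138). The other 8 were not called (0.079 for Mbd3, 0.116 for Dnmt3l). Before adjustment, the 95% interval with the block also excluded 0 for Mbd3 (-0.45 to -0.071), Dnmt3l (0.056 to 0.502), Zfp57 (0.021 to 0.392) and Hells (0.012 to 0.382). It held 0 for Dnmt1, Dnmt3a, Uhrf1 and Uhrf2. The share of all genes with such intervals is not given here. The lowest adjusted p of a member under the other alternatives was 0.478. Over all genes 12 were called, against 80 when low counts were kept, 5 by limma-voom, 92 by DESeq2 on unfiltered genes and 96 by DESeq2 on filtered genes (an alternative chosen after seeing the data). Leaving out 1 library gave 18 to 27; the cause was not tested. Signs turned for uncalled values near 0 when 1 library was left out: Dnmt3a 0.063 and Uhrf1 0.143 without dKO replicate 1, Zfp57 -0.014 without dKO replicate 2 and -0.015 without wt replicate 1, and Dnmt3l -0.023 and Uhrf1 0.225 without wt replicate 2. Their ranges with 1 library left out were -0.106 to 0.063 for Dnmt3a, -0.023 to 0.581 for Dnmt3l, -0.225 to 0.225 for Uhrf1 and -0.015 to 0.456 for Zfp57. The de novo minus maintenance difference of -0.13 ranged from -0.42 to 0.16 with 1 library left out, and the other alternatives gave -0.13 to -0.08.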
